A study of Homo sapiens with 12 samples.

Results

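The heat shock proteins and their DNAJ co-chaperones were examined in Huh7 and HepG2, a pair of human hepatocellular carcinoma (HCC) cell lines, before and after selection for resistance to sorafenib. The genes were chosen by a rule on symbols that uses no measured values, though earlier results of these data were known. The rule takes families HSPA, HSPB, HSPD, HSPE and HSPH, the genes HSP90AA1, HSP90AB1 and HSP90B1, and classes DNAJA, DNAJB and DNAJC, without pseudogenes and antisense genes. This gave 70 of 27249 Ensembl genes, under 69 symbols, because HSPA14 is listed under 2 overlapping Ensembl identifiers. They comprise 13 HSP70 genes, 3 HSP110 genes, 3 HSP90 genes, 7 small heat shock proteins, the 2 genes of the mitochondrial chaperonin, 4 DNAJA, 12 DNAJB and 26 DNAJC genes. Another 2 symbols that match the rule, HSPA7 and DNAJB3, were left out as pseudogenes.

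RNA sequencing covered 12 samples, 3 in each of 4 groups: resistant Huh7, parental Huh7, resistant HepG2 and parental HepG2. All cells carry the genotype WT. The resistant cells had been exposed to sorafenib, a multikinase inhibitor, at a first dose of 10 μmol and then at rising doses for 8 months, and the parental cells, called sorafenib sensitive in the labels, had no such exposure. Each line was made resistant in a single course, so a change in a line is that of this course of selection, and the labels do not say whether the drug was present at harvest or whether the 3 samples of a group came from separate cultures. The p-values therefore measure only the spread between these samples. The questions were which chaperone genes differ between resistant and parental cells of each line, and whether the change is the same in both lines.

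Values are FPKM (fragments scaled by exon length and library depth), a level per gene length, and 12290136 to 19285976 reads stood behind a sample. Pearson correlations of log2(FPKM + 1) within groups were 0.964 to 0.986. The hepatocyte genes checked were expressed in every sample, among them ALB at 571 to 2137 FPKM and HNF4A at 40.5 to 90.5 FPKM. The summed hepatocyte markers were lower in resistant than in parental samples of both lines, at 5209 to 5343 against 7852 to 9715 FPKM in Huh7 cells and 3894 to 4179 against 4966 to 6088 FPKM in HepG2 cells. AFP alone spanned 2115 to 6306 FPKM over the Huh7 and 329 to 1688 FPKM over the HepG2 samples, so the sums do not show that each marker was lower. Of 4 endothelial markers PECAM1 stood at 1.12 to 3.61 FPKM and KDR and CDH5 were below 0.05 FPKM. Of 5 fibroblast and stellate markers PDGFRB stood at 1.80 to 4.50 FPKM, LUM reached 0.88 FPKM in Huh7 cells and DCN was below 0.05 FPKM. Of 5 leukocyte markers 3 reached 1 FPKM in some sample, among them PTPRC at 0.75 to 1.51 FPKM and LYZ at up to 6.26 FPKM in HepG2 cells. The summed endothelial markers were 2.13 to 2.20 against 1.37 to 1.54 FPKM in resistant and parental Huh7 cells and 1.17 to 1.60 against 2.58 to 3.66 FPKM in HepG2 cells. The part of other cell types in the results was not tested. In bulk RNA, a lower level in all cells and a smaller number of cells with the transcript cannot be told apart.

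Chaperones of the HSP70 class bind unfolded stretches of client proteins in a cycle driven by ATP. J proteins, the DNAJ family, deliver clients and stimulate the ATPase, and HSP110 proteins act as nucleotide exchange factors that release them. HSP90 takes over clients such as kinases and steroid receptors late in folding with the help of its own cochaperones, small heat shock proteins hold unfolded proteins without ATP, and the HSPD1 and HSPE1 chaperonin folds proteins inside mitochondria. Many of the cytosolic genes are induced through heat shock factor 1 (HSF1) at heat shock elements, and the chaperones of the endoplasmic reticulum (ER) are induced in the unfolded protein response at ER stress elements. In tumour cells HSP90 is known for keeping oncogenic kinases stable.

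Promoter windows from RefSeq (GRCh38.p14, 250 bases before to 50 bases after a start site) were found for 63 of the genes, in 82 windows. A heat shock element of 3 units, spelled GAANNTTCNNGAA or TTCNNGAANNTTC, stood in windows of 7 of the 63 genes (11.1%) and of 166 of all 27305 genes with a window (0.608%). These were HSP90AA1, HSP90AB1, HSPA6, HSPA8, HSPD1, DNAJA1 and DNAJB6. An ER stress element, spelled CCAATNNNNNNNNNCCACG and searched on both strands, stood in windows of HSPA5 and HSP90B1 and of 25 genes in all (0.0916%). The plain CCAAT box, which overlaps the start of the ER stress element, was in windows of 41.3% of these chaperone genes and 39.7% of all genes. Such a match is a description of the letters, not evidence of binding. The 250 bases before the start site are shown for the cytosolic HSP90 pair, which moved in opposite directions in Huh7 cells, and for HSPA8, HSPA5 and HSP90B1, with the elements in capitals and the 5′ end first.
HSP90AA1, chr14:102087045-102087294, minus strand: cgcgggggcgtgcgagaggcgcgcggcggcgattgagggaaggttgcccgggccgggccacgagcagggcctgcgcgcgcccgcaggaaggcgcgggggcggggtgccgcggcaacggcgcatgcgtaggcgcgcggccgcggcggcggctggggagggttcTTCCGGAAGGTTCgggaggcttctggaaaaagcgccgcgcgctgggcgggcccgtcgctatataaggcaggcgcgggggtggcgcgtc
HSP90AB1, chr6:44247693-44247942, plus strand, before the last of its 3 listed start sites: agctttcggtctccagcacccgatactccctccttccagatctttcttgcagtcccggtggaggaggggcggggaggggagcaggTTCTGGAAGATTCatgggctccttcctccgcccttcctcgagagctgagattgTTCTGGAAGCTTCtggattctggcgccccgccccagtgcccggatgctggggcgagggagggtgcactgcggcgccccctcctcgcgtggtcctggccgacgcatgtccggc
HSPA8, chr11:123062137-123062386, minus strand: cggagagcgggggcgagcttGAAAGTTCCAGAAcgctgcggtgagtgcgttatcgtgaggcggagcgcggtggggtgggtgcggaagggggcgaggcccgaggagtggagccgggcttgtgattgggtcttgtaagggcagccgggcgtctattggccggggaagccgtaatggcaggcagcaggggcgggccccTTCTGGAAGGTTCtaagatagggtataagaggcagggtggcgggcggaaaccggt
HSPA5, chr9:125241344-125241593, minus strand: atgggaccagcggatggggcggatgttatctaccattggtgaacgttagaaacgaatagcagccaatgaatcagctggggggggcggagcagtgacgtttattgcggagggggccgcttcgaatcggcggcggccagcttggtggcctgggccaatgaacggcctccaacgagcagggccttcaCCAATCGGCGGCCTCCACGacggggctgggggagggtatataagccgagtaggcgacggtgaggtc
HSP90B1, chr12:103930160-103930409, plus strand: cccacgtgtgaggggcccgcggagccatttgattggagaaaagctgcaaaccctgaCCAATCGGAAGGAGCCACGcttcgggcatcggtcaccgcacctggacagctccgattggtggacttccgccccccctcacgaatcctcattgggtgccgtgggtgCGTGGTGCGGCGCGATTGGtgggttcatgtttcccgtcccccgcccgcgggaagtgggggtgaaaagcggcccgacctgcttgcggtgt

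Resistant Huh7 cells differed from their parental cells in most of the chaperone genes, and resistant HepG2 cells in few. Of the 70 genes, 53 passed the filter on low values (1 FPKM or more in 3 or more of a line's 6 samples) in Huh7 cells, 50 in HepG2 cells and 47 in both. A gene is called higher or lower when limma's test on log2(FPKM + 1) gave a Benjamini-Hochberg adjusted p under 0.05 over all genes tested, and differentially expressed when the log2 fold change was also beyond 1. In Huh7 cells 22 of the 53 rose, where 32.7% of all genes tested rose, and 19 fell, where 37.4% of all genes fell. Differentially expressed were DNAJA4 and HSPA1B as higher (2 genes, compared with 8.59% of all genes) and DNAJC13, HSP90AA1, HSPA13, DNAJC24, DNAJB14 and HSPA14 (ENSG00000187522) as lower (6 genes, compared with 14.0% of all genes). The count of 2 higher genes depended on single samples, with 7 without parental replicate 1, 1 without parental replicate 3 or resistant replicate 3 and 0 without resistant replicate 2. The 3 resistant and 3 parental samples did not overlap in 41 of the 53 genes, compared with 74.5% of all genes. The median log2 fold change was 0.11 over the chaperone genes and -0.04 over all genes. The share of chaperone genes called in Huh7 cells was thus near that of all genes. Of the 53, 7 passed the filter through a single group and so had to differ: DNAJA1 and DNAJA4 through the resistant samples, and DNAJC6, DNAJC15, DNAJC19, HSPA4L and HSPB11 through the parental ones. Their values are given as a description, and without them 20 of 46 genes were higher and 14 lower.

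In HepG2 cells 6 of the 50 rose (11.6% of all genes rose) and 4 fell (8.43% of all genes fell). HSPB1 and HSP90AA1 were differentially expressed as higher (2 genes, compared with 3.29% of all genes) and DNAJC12 as lower (1 gene, compared with 2.98% of all genes), but DNAJC12 passed the filter through the parental samples alone and is given as a description. Without it 6 of 49 genes were higher and 3 lower. The samples did not overlap in 23 of the 50 genes, compared with 40.4% of all genes, and the median log2 fold change was 0.23 over the chaperone genes and 0.12 over all genes. The direction of the calls in HepG2 cells depended on the scaling: all genes split into 1366 higher and 991 lower as deposited, 1085 and 1201 after upper-quartile scaling and 992 and 1286 after median-ratio scaling, and the chaperone genes into 5 higher and 7 lower after either. Without resistant replicate 3 the HepG2 counts fell to 2 higher and 1 lower, and without parental replicate 1 to 5 higher and 2 lower.

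Among the 47 genes tested in both lines, HSPA5 and HSPA8 rose in both and DNAJC6 was lower in both, in Huh7 cells by a filter that its parental samples alone met and with a change of -0.0061 (adjusted p = 0.956) once the GC trend described below was removed. HSP90AA1, DNAJC13 and HSPA14 (ENSG00000187522) fell in Huh7 cells and rose in HepG2 cells, and HSPA9 rose in Huh7 cells and fell in HepG2 cells. HSPB1 was called only in HepG2 cells, as higher, and DNAJC8 only there, as lower. A further 17 genes were called higher and 13 lower in Huh7 cells alone, and 8 were called in neither line. The plot of the changes in both lines shows HSPA8 and HSPA1B near the line of equal change and HSP90AA1 and DNAJC13 far above it.

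**Figure D1:**
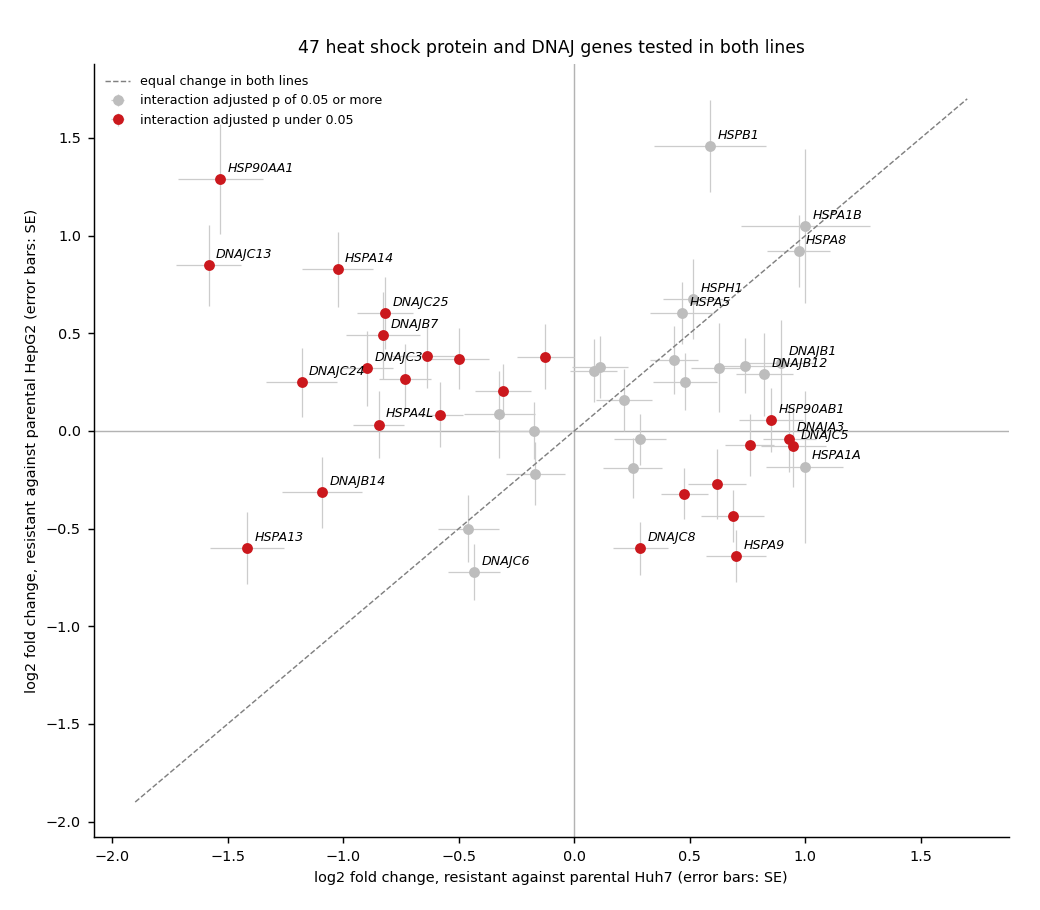
Log2 fold change, resistant against parental, in Huh7 cells (x axis) and HepG2 cells (y axis) for the 47 chaperone genes tested in both lines. Bars are standard errors from limma, red points have an adjusted p under 0.05 for the difference between the lines, and the dashed line marks an equal change; HSP90AA1 lies at -1.53 and 1.29, and HSPA8 at 0.97 and 0.92.

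The cytosolic HSP90 genes moved apart. HSP90AA1 (chr14:102080738-102139699), the inducible HSP90α, was 68.8, 73.7 and 68.9 FPKM in resistant Huh7 cells and 175.2, 177.0 and 279.7 FPKM in parental cells. In HepG2 cells it was 212.1, 128.7 and 148.8 FPKM in resistant samples and 77.0, 42.7 and 82.0 FPKM in parental samples. All resistant samples were thus below the parental ones in Huh7 cells and above them in HepG2 cells. It fell by 1.53 on the log2 scale in Huh7 cells (SE 0.18, adjusted p = 0.000163) and rose by 1.29 in HepG2 cells (SE 0.28, adjusted p = 0.0161), and the interaction of line and resistance was 2.82 (SE 0.38, adjusted p = 0.000123). HSP90AB1 (chr6:44246166-44253888), the constitutive HSP90β, was 581.1, 621.9 and 600.7 FPKM in resistant Huh7 cells and 365.0, 352.5 and 285.9 FPKM in parental cells. It rose by 0.85 (SE 0.14, adjusted p = 0.000699) with no overlap. In HepG2 cells it stood at 726.6 to 834.0 FPKM in resistant and 675.8 to 901.3 FPKM in parental samples, which overlapped (0.06, SE 0.16, adjusted p = 0.832). HSP90B1, the HSP90 of the ER, was not called in either line, at 115.4 to 131.7 against 133.7 to 188.6 FPKM in Huh7 cells (-0.32, adjusted p = 0.0877) and 109.2 to 142.4 against 81.9 to 144.3 FPKM in HepG2 cells. In limma-voom on reads HSP90B1 was called lower in Huh7 cells, and with the GC trend described below removed its change there was 0.21.

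**Figure D2:**
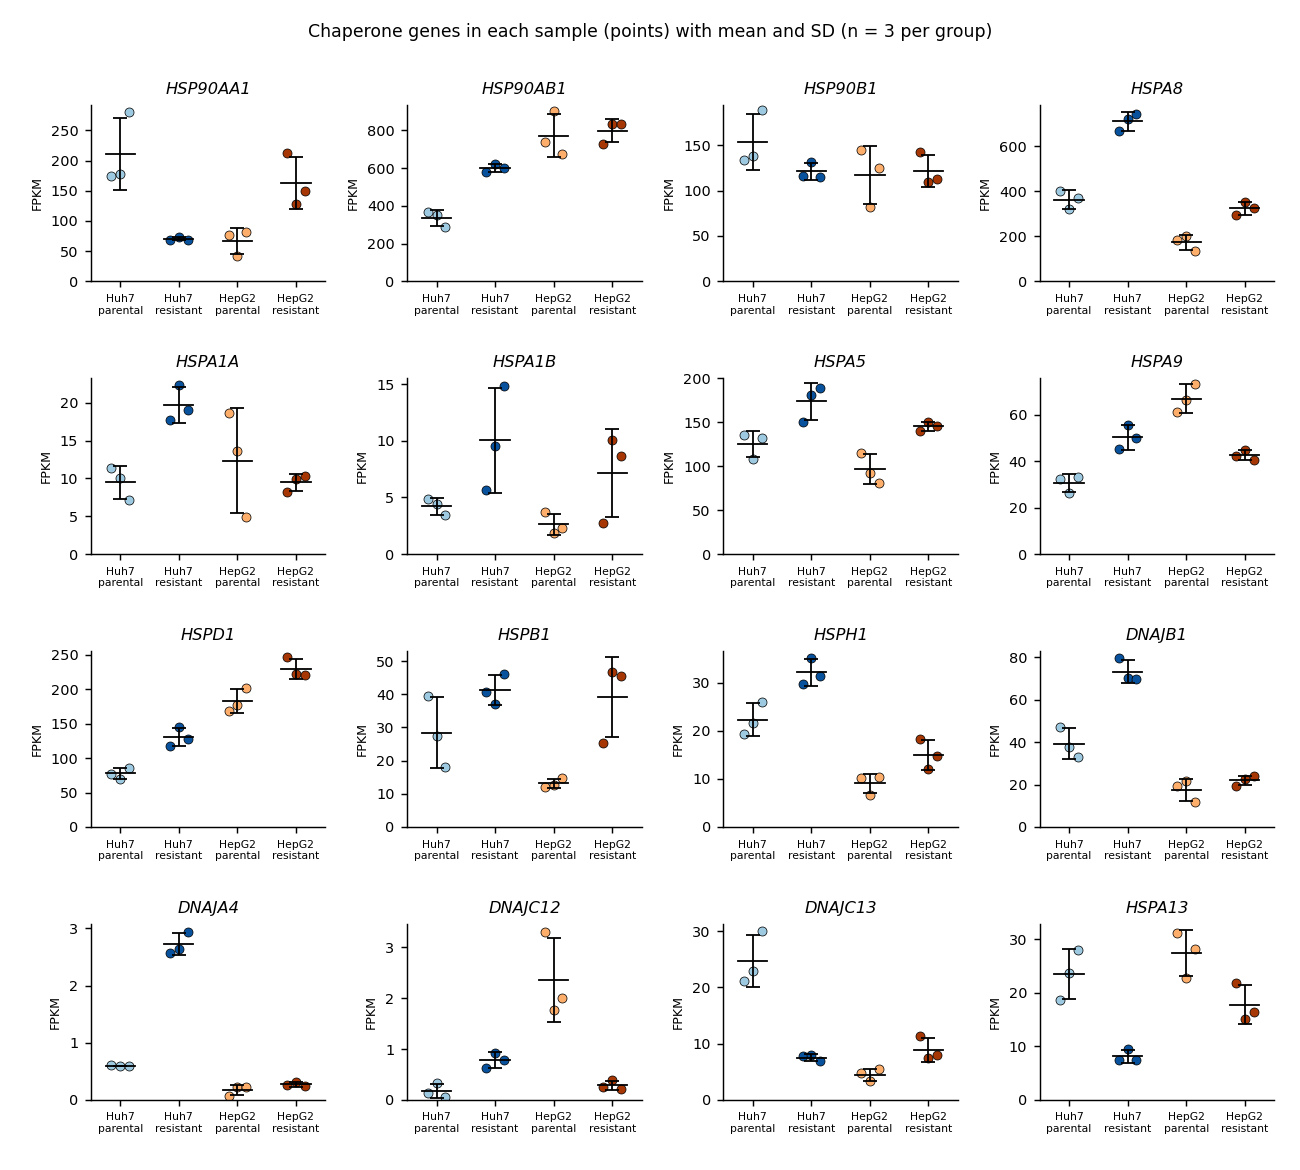
FPKM (y axis, linear from 0) of 16 chaperone genes in the 3 samples of each group (points), with the mean and the SD as bars. HSP90AA1 is lower in resistant than in parental Huh7 cells and higher in resistant than in parental HepG2 cells, and HSPA8 is higher in resistant cells of both lines.

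The constitutive cytosolic HSP70 rose in both lines. HSPA8 (chr11:123057489-123063230) encodes HSC70, the housekeeping HSP70 that also uncoats clathrin vesicles. It was 665.4, 719.7 and 744.9 FPKM in resistant Huh7 cells and 400.2, 319.6 and 368.9 FPKM in parental cells, a rise of 0.97 (SE 0.14, adjusted p = 0.000347). In HepG2 cells it was 294.6, 353.6 and 325.2 FPKM in resistant samples and 182.5, 201.8 and 134.1 FPKM in parental samples, a rise of 0.92 (SE 0.18, adjusted p = 0.0112). Resistant and parental samples were apart in each line, and the difference between the lines was -0.05 (SE 0.22, adjusted p = 0.867). Without HepG2 resistant replicate 3 the HepG2 rise was 0.92 with an adjusted p of 0.0522. HSPA8 has 17 pseudogenes named after it in GENCODE, so reads of near-identical copies may be shared.

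The stress-inducible pair HSPA1A and HSPA1B (HSP70), neighbours on chromosome 6, are near-identical copies, and the division of reads between them is uncertain. HSPA1A was 17.7, 22.4 and 19.0 FPKM in resistant Huh7 cells and 11.3, 10.0 and 7.13 FPKM in parental cells, a rise of 0.997 (SE 0.17, adjusted p = 0.000855). HSPA1B was 5.69, 9.54 and 14.9 FPKM against 4.84, 4.43 and 3.41 FPKM, a rise of 1.00 (SE 0.28, adjusted p = 0.0116), just past the threshold for differential expression that HSPA1A just missed. In HepG2 cells HSPA1B was 2.72, 10.1 and 8.67 FPKM in resistant and 3.69, 1.90 and 2.29 FPKM in parental samples. These overlapped in 1 resistant sample, and the change of 1.05 (SE 0.39) had an adjusted p of 0.0929. HSPA1A in HepG2 cells was 8.23 to 10.4 FPKM in resistant and 4.86 to 18.6 FPKM in parental samples, which overlapped. HSPA6, the strictly heat-induced HSP70, had no more than 4 reads in any sample.

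Other HSP70 genes differed more between the lines. HSPA2, the testis-enriched HSP70, was 2.55 to 3.81 FPKM in Huh7 cells, with a fold change on resistance of 0.00 on the log2 scale (SE 0.14), and at most 0.08 FPKM in HepG2 cells. HSPA13 (chr21:14371115-14383484), an atypical HSP70 of microsomes, was 7.36, 9.51 and 7.47 FPKM in resistant and 18.7, 23.7 and 28.1 FPKM in parental Huh7 cells, a fall of 1.42 (SE 0.16, adjusted p = 0.000136). In HepG2 cells it was 21.9, 15.1 and 16.4 FPKM against 31.2, 22.8 and 28.2 FPKM, also without overlap (-0.60, SE 0.18, adjusted p = 0.0519), and this fall passed the threshold in 8 of 11 alternative fits of all samples. With the GC trend removed the falls were 0.46 in Huh7 and 0.68 in HepG2 cells on the log2 scale, both called. HSPA14, a ribosome-associated HSP70, was called under ENSG00000187522, with 2.47, 2.77 and 3.40 against 5.86, 6.42 and 8.50 FPKM in Huh7 cells (-1.02, adjusted p = 0.000479) and 7.37, 5.17 and 5.76 against 3.49, 2.15 and 3.41 FPKM in HepG2 cells (0.83, adjusted p = 0.0205, or 0.0667 without resistant replicate 3). The overlapping identifier ENSG00000284024 stood at 6.64 to 13.8 FPKM over all samples and was called in neither line. How reads of this locus were divided between the overlapping gene models was not tested. HSPA1L, HSPA12A and HSPA12B were low, with HSPA12B reaching 2.45 FPKM in HepG2 cells.

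In the ER, the main HSP70 rose in both lines. HSPA5 (chr9:125234853-125241330), BiP, was 150.3, 181.6 and 189.6 FPKM in resistant and 135.7, 108.7 and 132.2 FPKM in parental Huh7 cells (0.47, SE 0.14, adjusted p = 0.0161). It was 140.2, 150.8 and 145.7 FPKM in resistant and 115.1, 92.7 and 81.6 FPKM in parental HepG2 cells (0.60, SE 0.16, adjusted p = 0.0318). Neither line showed overlap, but the Huh7 call was lost without parental replicate 2 or resistant replicate 3 (adjusted p up to 0.0791) and the HepG2 call without any 1 sample other than parental replicate 1 (adjusted p up to 0.129). Of the 10 ER chaperones and J proteins tested in Huh7 cells, 2 rose (HSPA5 and DNAJB12) and 5 fell: HSPA13, DNAJB9, DNAJB14, DNAJC3 and DNAJC16. Over all genes 32.7% rose and 37.4% fell, and with the GC trend removed the count turned to 3 higher, DNAJB11 among them, and 2 lower. DNAJC3, the P58IPK inhibitor of the kinase PERK, was 4.20 to 4.93 FPKM in resistant and 8.72 to 10.4 FPKM in parental Huh7 cells (-0.90, SE 0.11, adjusted p = 0.000203), a change of -0.24 with the GC trend removed. DNAJB14, a J protein of the ER membrane, was 1.25 to 1.78 against 3.20 to 5.49 FPKM (-1.09, SE 0.17, adjusted p = 0.000625). In HepG2 cells 1 of the 10, HSPA5, rose and 0 fell by limma at an adjusted p under 0.05, with 2 lower at an unadjusted p under 0.05 and 1 lower in limma-voom on reads. With the GC trend removed HSPA13 (-0.68, adjusted p = 0.00219), DNAJB9 (-0.61, adjusted p = 0.00341) and DNAJB14 (-0.39, adjusted p = 0.0157) were lower in HepG2 cells. Of all genes 17.6% were then called lower there.

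The main mitochondrial chaperones HSPA9 and HSPD1 rose in Huh7 cells. HSPA9, mortalin, the HSP70 that pulls proteins into the matrix, was 45.1, 55.6 and 49.9 FPKM in resistant and 32.4, 26.1 and 33.2 FPKM in parental Huh7 cells (0.70, SE 0.13, adjusted p = 0.00152). In HepG2 cells the order was the opposite, with 42.1, 44.7 and 40.4 FPKM in resistant and 61.0, 66.2 and 73.3 FPKM in parental samples (-0.64, SE 0.13, adjusted p = 0.0139), and the interaction was -1.34 (SE 0.17, adjusted p = 9.5e-05). Without HepG2 resistant replicate 3 the adjusted p in HepG2 cells was 0.0949. HSPD1 (HSP60) was 118.1, 144.6 and 128.1 against 76.9, 70.0 and 86.2 FPKM in Huh7 cells (0.74, SE 0.13, adjusted p = 0.000971). In HepG2 cells HSPD1 was 220.3 to 246.6 against 168.6 to 201.7 FPKM, without overlap but with an adjusted p of 0.126. Its partner HSPE1 (HSP10) was listed at only 0.19 to 0.92 FPKM and was not tested. GENCODE names 26 pseudogenes after HSPE1, 17 after HSPD1 and 6 after DNAJA1, and 23.9% of the exon bases of HSPE1 lie in overlapping genes, so the low values of HSPE1 and of DNAJA1 (0.20 to 1.62 FPKM) are uncertain. Of 7 mitochondrial members tested in Huh7 cells 5 rose (HSPA9, HSPD1, DNAJA3, DNAJC11 and DNAJC30) and 2 were lower (DNAJC15 and DNAJC19, which passed the filter through the parental samples alone), where 32.7% of all genes rose and 37.4% fell. With the GC trend removed HSPA9, HSPD1 and DNAJA3 were higher and 0 were lower by limma, with DNAJC11 at 0.25 (adjusted p = 0.0539), DNAJC30 at 0.16, DNAJC15 at 0.00051 and DNAJC19 at 0.16.

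HSPH1 (HSP105), an HSP110 exchange factor, was 29.8, 35.2 and 31.5 FPKM in resistant and 19.4, 21.6 and 26.0 FPKM in parental Huh7 cells (0.51, SE 0.13, adjusted p = 0.00744). In HepG2 cells it was 18.3, 12.1 and 14.7 against 10.2, 6.74 and 10.3 FPKM, without overlap and with an adjusted p of 0.0523. HSPA4L, tested through its parental samples alone, was 1.14 to 1.57 FPKM in parental and 0.27 to 0.32 FPKM in resistant Huh7 cells (-0.85, SE 0.11), a change that was -0.055 (adjusted p = 0.641) with the GC trend removed. HSPA4 was called in neither line. HSPB1 (HSP27, chr7:76302544-76304295), a small heat shock protein that also guards actin filaments, was 25.4, 46.6 and 45.4 FPKM in resistant and 12.2, 12.5 and 14.7 FPKM in parental HepG2 cells. All resistant samples were above the parental ones, and the rise of 1.46 (SE 0.23, adjusted p = 0.00496) was the largest of the members tested in HepG2 cells. In Huh7 cells HSPB1 was 40.8, 37.0 and 46.0 against 39.4, 27.5 and 18.1 FPKM, which overlapped (0.59, SE 0.24, adjusted p = 0.0570), and the difference between the lines had an adjusted p of 0.0719. HSPB11, which is known as an intraflagellar transport protein, was lower in resistant Huh7 cells (-0.50) and was tested through its parental samples alone. The other small heat shock proteins were under 0.7 FPKM in every sample, and HSPB3, HSPB6 and the testis gene DNAJB8 had no more than 3 reads in any sample.

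Of the DNAJA genes, the class closest to bacterial DnaJ, DNAJA2 and DNAJA3 rose in Huh7 cells, and DNAJA1 and DNAJA4 were higher but passed the filter through the resistant samples alone. DNAJA4 was 2.58, 2.64 and 2.94 FPKM in resistant and 0.60, 0.59 and 0.59 FPKM in parental cells, a difference of 1.22 (SE 0.10) on the log2 scale that could not be tested without any 1 of the resistant samples. In HepG2 cells DNAJA4 was at most 0.32 FPKM and was not tested within the line. DNAJA2 was 28.6, 37.4 and 33.3 against 20.6, 22.7 and 17.4 FPKM in Huh7 cells (0.68, SE 0.14, adjusted p = 0.00227). In HepG2 cells DNAJA2 was 47.8, 45.5 and 46.7 against 61.9, 70.7 and 58.7 FPKM, lower without overlap (-0.44, adjusted p = 0.0508). This fall passed the threshold in 8 of 11 alternative fits of all samples, at -0.54 (adjusted p = 0.0311) with the GC trend removed, and the interaction was -1.12 (SE 0.18, adjusted p = 0.00037). DNAJA3 rose by 0.93, and the difference of DNAJA1, at the low values above, was 0.59.

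In class DNAJB 4 of 10 tested genes were higher and 4 lower in Huh7 cells (32.7% and 37.4% of all genes), and 3 and 1 with the GC trend removed. In HepG2 cells 0 of 8 were called by limma (11.6% of all genes higher and 8.43% lower), with 1 lower at an unadjusted p under 0.05 and 0 in limma-voom on reads. With the GC trend removed DNAJB2, DNAJB9 and DNAJB14 were lower, as were 17.6% of all genes. DNAJB1 (HSP40), the main heat-inducible J protein, was 79.6, 70.1 and 69.9 FPKM in resistant and 47.3, 37.7 and 32.8 FPKM in parental Huh7 cells (0.89, SE 0.15, adjusted p = 0.000718). In HepG2 cells DNAJB1 was 19.5 to 23.9 against 11.8 to 21.6 FPKM, which overlapped (0.35, adjusted p = 0.280). Of the list of heat-inducible cytosolic chaperones, which crosses these classes, 7 of 11 tested genes rose and 3 fell in Huh7 cells (32.7% and 37.4% of all genes), and 3 of 9 rose in HepG2 cells (11.6% of all genes). Genes of the list that passed the filter through a single group, and so had to differ, were left in these counts. The counts of this list are therefore given as a description. Removal of the GC trend gave 6 higher and 1 lower in Huh7 cells and 4 higher in HepG2 cells. Over all genes 32.5% were then higher and 31.9% lower in Huh7 cells, and 15.8% higher in HepG2 cells. DNAJB12, DNAJB2 and DNAJB6 also rose in Huh7 cells, and DNAJB4, DNAJB7, DNAJB9 and DNAJB14 fell there. With the GC trend removed DNAJB12 stayed higher, while DNAJB2 (0.077) and DNAJB6 (-0.20) were not called. DNAJB4, DNAJB7, DNAJB9 and DNAJB14 then lost their calls too, and DNAJB11 was newly called higher and DNAJB5 lower. The DNAJB6 call was also lost in 5 of 6 fits that left out a sample (adjusted p up to 0.193).

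In class DNAJC, with the most varied domains, 6 of 21 tested genes were higher and 10 lower in Huh7 cells (32.7% and 37.4% of all genes). The lower ones include DNAJC6, DNAJC15 and DNAJC19, which passed the filter through the parental samples alone and so had to be lower. With the GC trend removed 3 were higher and 4 lower. In HepG2 cells 1 of 22 was higher and 3 were lower (11.6% and 8.43% of all genes), with DNAJC12 among the lower through its parental samples alone. DNAJC13 (chr3:132417526-132539032), the endosomal J protein RME-8, was 7.76, 7.91 and 6.85 FPKM in resistant and 21.1, 23.0 and 29.99 FPKM in parental Huh7 cells, a fall of 1.58 (SE 0.14, adjusted p = 5.08e-05). In HepG2 cells it was 11.4, 7.46 and 7.89 against 4.70, 3.34 and 5.44 FPKM, a rise of 0.85 (SE 0.21, adjusted p = 0.0246) that missed the threshold without parental replicate 1, parental replicate 2 or resistant replicate 3 (adjusted p up to 0.0655). Its interaction of 2.43 (SE 0.26, adjusted p = 3.31e-05) had the smallest p of all members. DNAJC24, a J protein of diphthamide synthesis, was 2.08, 2.57 and 1.97 against 5.28, 5.80 and 7.91 FPKM in Huh7 cells (-1.18, SE 0.15, adjusted p = 0.000242) and was not called in HepG2 cells. DNAJC12, a cochaperone of aromatic amino acid hydroxylases, was 0.25, 0.39 and 0.22 FPKM in resistant and 3.30, 1.76 and 2.01 FPKM in parental HepG2 cells (-1.36, SE 0.19), a difference given as a description since it was tested through the parental samples alone. In Huh7 cells DNAJC12 stayed under 1 FPKM, at 0.62, 0.93 and 0.79 FPKM in resistant and 0.13, 0.34 and 0.06 FPKM in parental samples, too low for the test within the line. DNAJC6, auxilin, which works with HSPA8 on clathrin coats, was 0.59, 0.95 and 0.74 against 1.40, 1.36 and 1.34 FPKM in Huh7 cells (-0.43) and 1.01, 0.79 and 0.84 against 2.22, 1.83 and 2.27 FPKM in HepG2 cells (-0.72, adjusted p = 0.0112, or 0.0657 without resistant replicate 3). DNAJC8, a J protein linked to splicing, was 8.89, 8.16 and 9.05 against 13.4, 12.7 and 15.2 FPKM in HepG2 cells (-0.60, adjusted p = 0.0177). This call was lost without parental replicate 1, resistant replicate 2 or resistant replicate 3 (adjusted p up to 0.0854). DNAJC22, a membrane J protein, rose in Huh7 cells from 22.6 to 26.6 FPKM in parental samples to 33.3 to 34.7 FPKM in resistant samples (0.48, adjusted p = 0.00305, or 0.13 and not called with the GC trend removed), and DNAJC25 fell from 12.1 to 13.4 FPKM to 6.03 to 8.00 FPKM (-0.82, adjusted p = 0.000448).

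In Huh7 cells the change followed the GC content of the gene, measured over its longest transcript. Across the 12545 genes with a GC value, Spearman's rho of the log2 fold change with GC content was 0.617, and over the 53 chaperone genes it was 0.706. In HepG2 cells the values were 0.0389 and 0.158. These correlations are over genes that share the same libraries and are given as a description. The chaperone genes that rose in Huh7 cells had a median GC content of 52.0% and those that fell 39.9%, compared with 46.7% over all genes. With each library's GC trend taken out, 14 of the 22 higher genes remained higher, among them HSPA8 (0.96), HSP90AB1 (0.75), HSPD1 (0.99), HSPA9 (1.02), HSPH1 (1.16) and DNAJA2 (1.20). The change of others shrank, to 0.46 for HSPA1A, 0.49 for DNAJB1, 0.58 for DNAJA3, 0.41 for DNAJC5 and 0.31 for DNAJB12, each still higher. Of the 19 lower genes 8 remained lower, with HSP90AA1 at -1.38 and DNAJC13 at -1.07, while HSPA13 moved to -0.46 and DNAJC24 to -0.33. DNAJB14 was then at -0.10 (adjusted p = 0.349) and HSPA1B at 0.46 (adjusted p = 0.204), and neither was called. In HepG2 cells the 6 higher and 4 lower genes kept their calls, and 2 further genes were called higher and 7 lower. Over all genes the HepG2 calls also went up with this removal, from 11.6% to 15.8% higher and from 8.43% to 17.6% lower. The median HepG2 change of all genes went from 0.12 to 0.0145. What gives the GC trend in Huh7 cells was not tested.

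**Figure D3:**
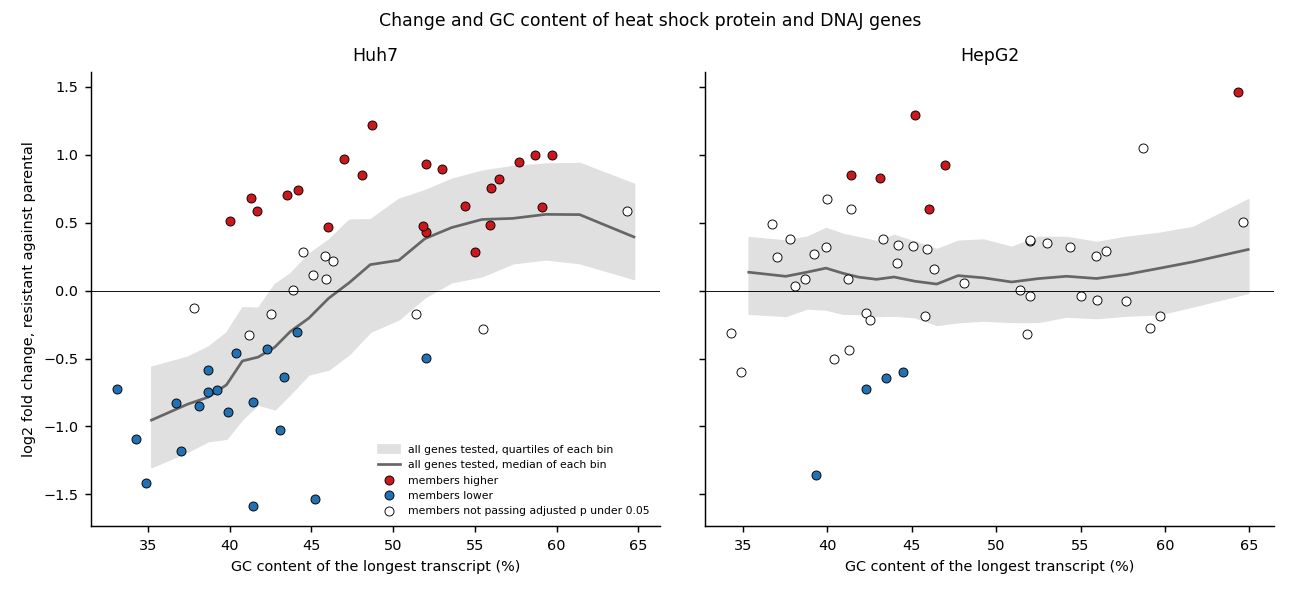
Log2 fold change, resistant against parental (y axis), against the GC content of the longest transcript in percent (x axis), for the chaperone genes tested in Huh7 (left) and HepG2 cells (right). The grey line and band give the median and the quartiles of all genes tested in 20 bins of GC content; higher genes in Huh7 cells (red) have a median of 52.0% and lower genes (blue) of 39.9%.

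The regulators and partners of these chaperones, taken from lists of genes outside the families above, are read against all genes, of which 32.7% rose and 37.4% fell in Huh7 cells and 11.6% rose and 8.43% fell in HepG2 cells. HSF1, the master factor of the heat shock response, was 13.0, 10.3 and 13.9 FPKM in resistant and 5.12, 4.21 and 4.54 FPKM in parental Huh7 cells (1.24, SE 0.13, adjusted p = 0.000108). In HepG2 cells HSF1 was 5.24, 9.20 and 7.52 against 7.53, 9.03 and 7.87 FPKM (-0.16, SE 0.19, adjusted p = 0.581), and the interaction was -1.41 (SE 0.24, adjusted p = 0.000628). HSF2 fell in Huh7 cells (-0.37, adjusted p = 0.0196), a call whose direction turned to 0.22 once the GC trend was removed, and was not called in HepG2 cells (-0.44, adjusted p = 0.0983). Of the fits that left out a Huh7 sample, 4 lost the HSF2 call and 2 kept it.

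Of 14 tested HSP90 cochaperones 11 rose and 3 fell in Huh7 cells, and the median of their log2 fold changes was 0.60, while 32.7% of all genes rose and 37.4% fell. Removal of the GC trend left 9 higher and 2 lower, with a median of 0.26. FKBP4, a prolyl isomerase of steroid receptor complexes, rose by 1.19, NUDC by 1.08 and STIP1, the adaptor that links HSP70 to HSP90, by 1.03, whereas the isomerase PPID fell by 1.26. CDC37, which brings kinases to HSP90, rose by 0.50, AHSA1, which stimulates the HSP90 ATPase, by 0.53 and the mitochondrial HSP90 paralogue TRAP1 by 0.90. In HepG2 cells 0 of the 14 passed limma's test at an adjusted p under 0.05, 1 was higher at an unadjusted p under 0.05 and 0 passed in limma-voom on reads, and their median was -0.03. With the GC trend removed 1 was higher and 2 were lower in HepG2 cells, with a median of -0.12. Of TRiC, the cytosolic chaperonin, and its partner prefoldin, 9 of 13 genes rose and 1 (CCT8) fell in Huh7 cells, led by CCT7 (1.26) and PFDN4 (1.00), and 9 were higher and 0 lower by limma with the GC trend removed. In HepG2 cells 1 of 14 rose (CCT8, 0.69) and 1 fell (PFDN2, -0.99). The median over all genes was -0.04 in Huh7 cells and 0.12 in HepG2 cells.

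Among 15 other HSP70 cofactors 7 rose and 5 fell in Huh7 cells, among them HYOU1, the ER HSP110 (0.99), BAG6 (0.93) and BAG3, the stress-induced exchange factor (0.82), as higher (32.7% of all genes rose and 37.4% fell). Removal of the GC trend left 7 higher and 2 lower. In HepG2 cells ST13 (0.67) and BAG5 (0.74) rose and SEC63, the J protein of the ER translocon, fell (-0.85), as it did in Huh7 cells (-0.65). Of 18 genes of the ER unfolded protein response 7 rose and 4 fell in Huh7 cells, and 8 were higher and 4 lower with the GC trend removed. XBP1, its transcription factor, rose by 1.12, the BiP partner SDF2L1 by 1.12, and SEL1L, of the degradation complex, fell by 1.45. In HepG2 cells ERN1, the sensor IRE1α, fell by 2.11 (SE 0.15, adjusted p = 0.000188) and HERPUD1 by 0.74 on the log2 scale, while the sensor EIF2AK3 (PERK) rose by 0.89 and MANF by 0.58. Of 8 mitochondrial proteases and CLPB, 3 rose and 2 fell in Huh7 cells, YME1L1 by the most (-1.13), and CLPB, a disaggregase, rose in both lines (0.90 in Huh7 and 0.83 in HepG2 cells). With the GC trend removed this balance turned to 2 higher and 4 lower in Huh7 cells, compared with 32.5% and 31.9% of all genes.

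**Figure D4:**
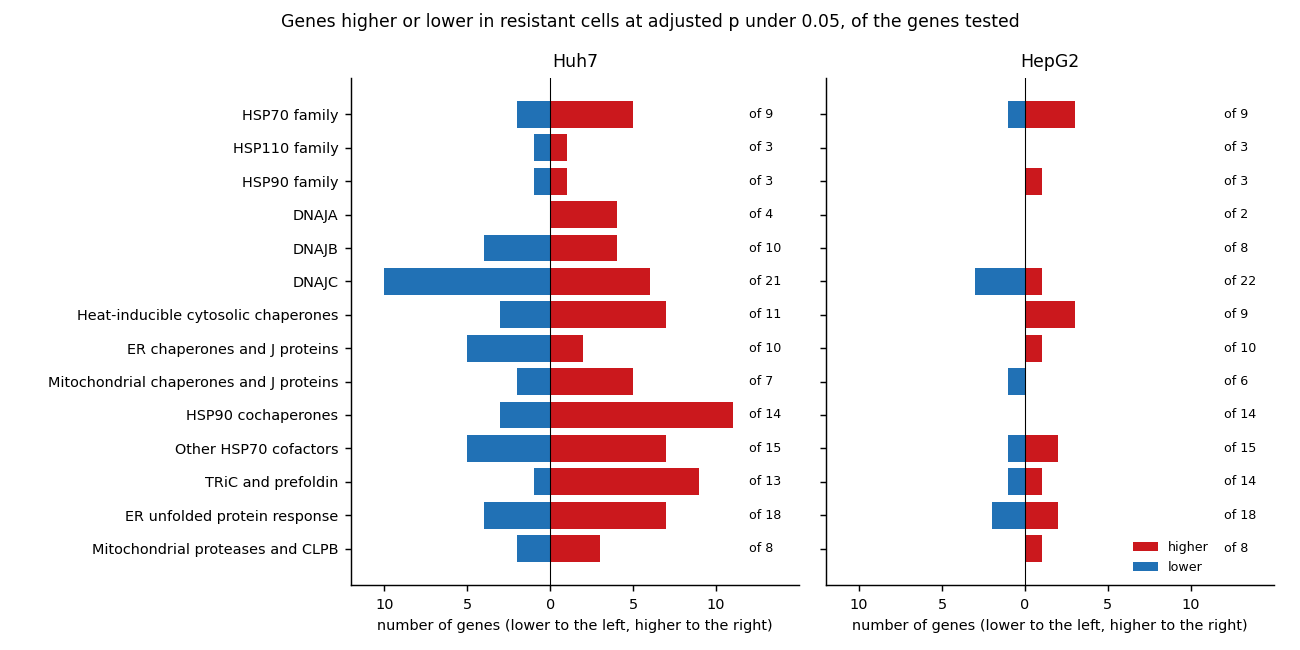
Number of genes higher (red, to the right) or lower (blue, to the left) in resistant cells at an adjusted p under 0.05, per list, in Huh7 and HepG2 cells, with the number tested at the right of each bar. Of the HSP90 cochaperones 11 of 14 were higher and 3 lower in Huh7 cells, and 0 of 14 were called in HepG2 cells.

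The summed level of a class shows which genes carry most of the chaperone transcripts per length. The 13 HSP70 genes summed to 991 ± 72.3 FPKM (SD, n = 3) in resistant and 578 ± 57.5 FPKM in parental Huh7 cells, and to 566 ± 35.8 against 391 ± 46.2 FPKM in HepG2 cells. The 3 HSP90 genes summed to 793 ± 31.3 against 698 ± 48.3 FPKM in Huh7 cells, where the rise of HSP90AB1 and the fall of HSP90AA1 offset each other in part, and to 1083 ± 12.1 against 956 ± 71.9 FPKM in HepG2 cells. The chaperonin summed to 131 ± 13.4 against 78.0 ± 8.15 FPKM in Huh7 cells and to 230 ± 14.8 against 183 ± 17.4 FPKM in HepG2 cells. As deposited, these sums did not overlap between groups, and the exact permutation test (two-sided) gave p = 0.1 for each, the smallest it can give for 3 samples against 3. For the HSP90 sum in HepG2 cells this depended on the scaling, with an exact p of 0.3 after upper-quartile and 0.7 after median-ratio scaling. The 7 small heat shock proteins, nearly all of it HSPB1, summed to 41.2 ± 11.7 against 14.5 ± 1.10 FPKM in HepG2 cells (exact p = 0.1) and overlapped in Huh7 cells (exact p = 0.2). The 42 DNAJ genes summed to 341 ± 11.4 against 317 ± 4.85 FPKM in Huh7 cells (exact p = 0.1) and to 263 ± 2.50 against 272 ± 13.5 FPKM in HepG2 cells, where the groups overlapped (exact p = 0.4). After upper-quartile or median-ratio scaling the DNAJ sum was lower in resistant HepG2 cells with an exact p of 0.1. All 70 genes together took 0.966% to 1.11% of the Ensembl FPKM in resistant and 0.871% to 1.00% in parental Huh7 cells, which overlap, and 1.07% to 1.13% against 0.885% to 0.938% in HepG2 cells, which do not.

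The parental lines already differed in these genes. Of 52 tested, 23 were higher in parental Huh7 than in parental HepG2 cells (39.0% of all genes) and 14 lower (26.2% of all genes), and 13 higher and 6 lower were differentially expressed (19.4% and 12.5% of all genes). Without parental Huh7 replicate 2 the higher count was 14, and without parental Huh7 replicate 3 the lower count was 9. DNAJB4, DNAJB5, DNAJC12, DNAJC15 and HSPA2 passed the filter through 1 line alone and so had to differ, and without these 5 genes 19 of 47 were higher and 13 lower. DNAJB4, DNAJB5 and HSPA2 are among the 13 differentially expressed as higher, and DNAJC12 is among the 6 lower. The differences of these genes are a description. DNAJC13 (2.23), DNAJB5 (2.20), HSPA2 (1.98), DNAJC25 (1.85), HSP90AA1 (1.65), HSPH1 (1.22), DNAJB1 (1.15) and HSPA8 (1.08) were among those higher in Huh7 cells on the log2 scale. DNAJA2 (-1.61), DNAJC12 (-1.49), HSPD1 (-1.22), HSP90AB1 (-1.20), HSPA9 (-1.11) and DNAJC5 (-1.05) were those lower. HSP90AA1, DNAJC13 and DNAJC25, higher in parental Huh7 cells, fell in resistant Huh7 cells, and HSP90AB1, HSPA9, HSPD1, DNAJA2 and DNAJC5, lower in parental Huh7 cells, rose in resistant ones. Others moved the opposite way: HSPA8, DNAJB1, HSPH1, HSPA1B and DNAJC14, higher in parental Huh7 cells, rose further in resistant ones. The comparisons share the parental Huh7 samples, so these directions are not independent of each other.

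The change on resistance differed between the lines in 28 of 56 chaperone genes tested in all 12 samples (interaction at an adjusted p under 0.05), compared with 56.3% of all genes. In 17 of them the change was more positive in HepG2 cells and in 11 it was more positive in Huh7 cells. As deposited, no difference was called for HSPA8, HSPA5, HSPH1 or HSPA1B, for which the interaction was -0.05 (SE 0.22), 0.14 (SE 0.21), 0.16 (SE 0.26) and 0.05 (SE 0.56). With the GC trend removed the interaction of HSPH1 was -0.56 and was called (adjusted p = 0.00652), and those of the other 3 genes were not.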

How the data were processed

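Each deposited table holds a decimal value per gene for a sample, with no unit stated. In genes of a single exon, 99.5% to 99.6% of the values become whole reads, to within 0.05, once exon length and depth are multiplied back, so the deposited values are treated as FPKM made by the authors (RPKM would look the same). The submitters' processing notes name bcl2fastq and GRCh38, and the aligner and counter are not given in the sources used here. The labels name the RNeasy kit for RNA extraction and the methods name TRIzol.

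Genes reaching 1 FPKM in 3 or more of the samples compared were tested with limma 3.58.1 in R 4.3.3 (empirical Bayes with a trend) on log2(FPKM + 1), a scale that understates changes of low genes. Within a line the 6 samples of that line entered the fit, and the interaction used all 12. Sums were compared with exact permutation tests. Exons, GC content and positions came from GENCODE release 29 (GRCh38), and promoter windows from RefSeq. Read numbers behind a value were calculated back from it, and a limit of 3 reads marks genes without detection. Intervals and limits of this kind cover counting error only, since reads were not tagged by molecule and are not independent. The fits were tested on simulated data. The genes and lists were chosen with earlier results of these data known. Named are members that were differentially expressed in a line, 15 main chaperones, the 10 members with the smallest interaction p, HSF1, HSF2 and differentially expressed genes of the partner lists. Other members and partner genes named in the text were chosen after their values were seen. Alternatives were upper-quartile and median-ratio scaling, a pseudocount of 0.1, no filter or 10 reads in every sample, limma-voom, no trend, all 12 samples in the fit, the replicate number as a block, removal of the GC trend (lowess, span 0.3) and leaving out each sample.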

Additional observations from a re-analysis of the deposited data

Results flagged for a closer look

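The change from parental to resistant cells differed between the lines, by limma's interaction of line and resistance over all 12 samples, in 28 of the chaperone genes. Values are the log2 change in HepG2 cells minus that in Huh7 cells. Among HSP90 and HSP70 genes and their exchange factors, the difference was 2.82 for HSP90AA1, 1.85 for HSPA14 (ENSG00000187522), 0.88 for HSPA4L, 0.82 for HSPA13, -0.80 for HSP90AB1 and -1.34 for HSPA9. For the small heat shock family member HSPB11 it was 0.87. Among DNAJA and DNAJB genes it was 1.31 for DNAJB7, 0.78 for DNAJB14, 0.51 for DNAJB11, -0.89 for DNAJB2, -0.97 for DNAJA3, -1.11 for DNAJA4 and -1.12 for DNAJA2. Among DNAJC genes with a more positive change in HepG2 cells it was 2.43 for DNAJC13, 1.43 for DNAJC24, 1.42 for DNAJC25, 1.22 for DNAJC3, 1.02 for DNAJC2, 1.00 for DNAJC21, 0.99 for DNAJC15, 0.66 for DNAJC19 and 0.51 for DNAJC16. Among those with a more positive change in Huh7 cells it was -1.96 for DNAJC12, -1.03 for DNAJC5, -0.89 for DNAJC8, -0.83 for DNAJC11 and -0.80 for DNAJC22. Once the GC trend of each library was removed, 8 of the 17 positive and all 11 negative differences remained called with the same sign, 8 positive ones were not called and DNAJB11 was called with the opposite sign. Over all genes 27.3% then had a positive and 28.6% a negative difference called. DNAJA4 and DNAJC12 passed the filter through a single group, and their differences are a description. The part of GC content in these differences was not tested further.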

How the results depend on the processing

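For the named genes, 900 values outside the fits that left out a sample kept their direction and side of the threshold, 69 newly passed it, 19 no longer did and 27 reversed. With the GC trend removed, with or without the replicate block, the Huh7 count fell to 9 lower, with 5 higher and 2 lower differentially expressed, and 8 were differentially expressed and higher in parental Huh7 than HepG2 cells. HepG2 cells then had 11 lower genes, or 10 with the block, and without the block 17.6% of all genes were lower. With the block alone HepG2 cells had 10 higher and 7 lower genes. Same-numbered samples of Huh7 cells did not deviate together (correlations -0.23 to 0.08). In HepG2 cells the correlations were 0.25, 0.44 and -0.01 for replicates 1, 2 and 3, and -0.42 to 0.21 between samples of different number. Whether the numbers pair the HepG2 samples cannot be decided from these values. Limma-voom and a pseudocount of 0.1 each gave 6 higher and 12 lower differentially expressed genes in Huh7 cells and 2 lower in HepG2 cells, limma-voom 10 higher with 4 of them differentially expressed in HepG2 cells, and median-ratio scaling 4 higher differentially expressed in Huh7 cells. HepG2 cells had 2 higher genes with 1 differentially expressed without a filter, 11 higher and 0 differentially expressed lower with 10 reads in every sample, 8 lower with all 12 samples and 7 lower under either scaling. Upper-quartile and median-ratio scaling moved the resistant minus parental sum in HepG2 cells from 127 to 67.5 and 44.6 FPKM for HSP90 and from -9.19 to -24.6 and -30.4 FPKM for DNAJ genes, and the median HepG2 change of all genes from 0.12 to 0.05 and 0.03.

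Reversed by removal of the GC trend, with or without the block, were HSP90AB1 (-0.00041) and HSP90B1 (-0.020) in HepG2 cells, HSP90B1 (0.21) and HSF2 (0.22) in Huh7 cells, DNAJB14 (-0.42) and HSP90B1 (-0.036) between parental lines, and the interactions of DNAJB14 (-0.25), HSP90B1 (-0.19), HSPA13 (-0.19) and HSPH1 (-0.56, called). Reversed by scaling (median-ratio, then upper-quartile where it reversed too) were HSP90AB1 (-0.059 and -0.027) and HSP90B1 (-0.029) in HepG2 cells and the interactions of HSPA1B (-0.096 and -0.032), HSPA5 (-0.048) and HSPH1 (-0.011). The cause was not tested.

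Leaving out each sample in turn gave 0 to 7 higher differentially expressed genes in Huh7 cells, 2 to 6 higher, 1 to 6 lower and 0 to 1 lower differentially expressed genes in HepG2 cells, and 14 to 21 higher and 9 to 11 lower genes between parental lines. The 0 arose without any HepG2 parental replicate, where DNAJC12 no longer passed the filter. Of the 41 Huh7 calls 29 held in every such fit and 5 were lost in some, and of the 10 HepG2 calls 2 held in every fit and 7 were lost in some; the others fell under the filter in some fit and held in the rest. Changes that crossed 0 were, in HepG2 cells, HSP90AB1 (-0.035 to 0.17), HSP90B1 (-0.15 to 0.25), HSPA1A (-0.69 to 0.18) and HSF1 (-0.32 to 0.032), between parental lines HSPA1A (-0.71 to 0.16) and HSF2 (-0.13 to 0.082), and the interactions of HSPA1B (-0.27 to 0.54), HSPA8 (-0.22 to 0.073), HSPH1 (-0.019 to 0.30) and HSF2 (-0.19 to 0.023). HSPE1, DNAJA1, HSPA6 and the low small heat shock proteins rested on few reads, at most 35 in a sample for HSPE1 and 84 for DNAJA1. What keeps them low was not tested.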
